A study of Saccharomyces cerevisiae with 4 samples.

Results

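The loss of SIR4 in a strain that still has UBP10 was read from 2 of the 4 arrays of a study of the yeast deubiquitinating enzyme Ubp10: the array labelled as sir4 null against the array labelled wild type. All 9275 probe sets that are not controls entered, and 6504 of them name 1 gene each and gave 5656 genes. The 4 strains are a sir4 null, a double null that lacks both UBP10 and SIR4, a ubp10 null, and the W303-1A parent (wild type), an a-mating laboratory haploid with several auxotrophic markers. All were growing exponentially when total RNA was taken, and all are of the yeast Saccharomyces cerevisiae. The sources used here do not say how the genes were deleted, which medium was used or how many cultures an array stands for. Each strain has 1 array, so the differences have no replicate check and no test, and only their sizes are given.

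Sir4 is a scaffold of the SIR complex, in which Sir2 removes acetyl groups from histones and Sir3 and Sir4 bind the deacetylated tails. The complex keeps genes near telomeres and the silent mating cassettes HML and HMR shut. When the cassettes open, a haploid makes the regulators of both mating types at once and turns its a-specific and haploid-specific genes off, as a diploid does. Ubp10 takes ubiquitin off histone H2B and is also needed for full silencing at telomeres.

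Intensities are Affymetrix average differences, that is, the mean of the perfect-match minus mismatch probe signals of a probe set, in arbitrary units. Values under a floor of 6.67 units, which is 3 times the noise estimated from negative values, were set to it. Each ratio was centred on the median ratio of the 6058 probe sets above the floor on both arrays. That median was 1.38-fold, or 0.47 on the log2 scale, higher on the array labelled as sir4 null. A gene is called higher or lower where the centred ratio is at least 2-fold, the brighter value is at least 13.3 units and the uncentred ratio runs the same way. A ratio against a value at the floor is a bound and is given as "at least". Log2 ratios are centred throughout.

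The targeted genes were read first. UBP10, present in both strains, had 269.2 units on the array labelled as sir4 null and 247.9 units in wild type, and lay below the floor on the arrays labelled double null and ubp10 null. SIR4 itself was dim on every array. It had 20.7 units on the array labelled as sir4 null, 15.5 units in the double null, a value below the floor in the ubp10 null and 10.8 units in wild type. The SIR4 probe set was therefore not lower where SIR4 is labelled as deleted, with a centred log2 ratio of 0.47 against wild type. Nothing in the labels places the probe set inside or outside the deleted stretch, so it does not check the label, and every direction below is that of the array labelled as sir4 null.

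The array labelled as sir4 null stood apart in its control probe sets, which read the 5′ end, the middle and the 3′ end of 1 transcript. The transcript of actin, ACT1, had 1399.6 units at its 3′ end, 176.2 in the middle and 16.1 at its 5′ end on the array labelled as sir4 null, against 2265.2, 1682.2 and 1464.1 units in wild type. The 3′ end was thus near the level of the double null (1383.3 units), while the 5′ end was 86.9-fold dimmer than the 3′ end, against 1.55-fold in wild type. SPT15, which encodes the TATA-binding protein, showed a like drop but only towards the 5′ end, with 545.7, 342.6 and 29.2 units on the array labelled as sir4 null and 388.6, 462.5 and 184.3 units in wild type. For SRB4, a Mediator subunit, the 3′ end had 55.0 units on the array labelled as sir4 null and 29.6 units in wild type, and the middle had 0.5 and 20.1 units. RNA quality, labelling and strain cannot be told apart with 1 array.

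**Figure D1:**
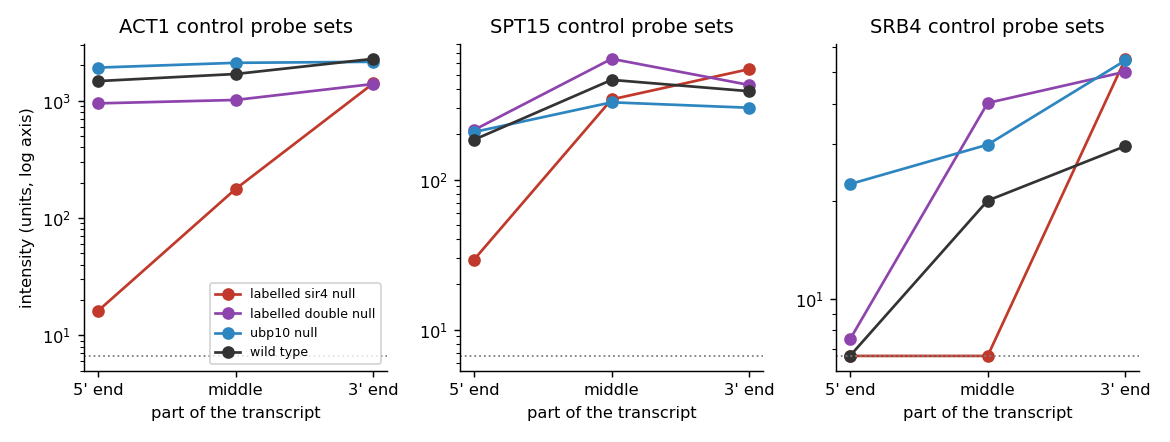
Intensity, in units on log axes, of the 5′, middle and 3′ control probe sets of ACT1, SPT15 and SRB4 on the 4 arrays, with the floor of 6.67 units as a dotted line. The array labelled as sir4 null is at the level of the double null at the 3′ end of ACT1 and lies below the other 3 at the 5′ ends of ACT1 (16.1 units) and SPT15 (29.2 units).

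Some control genes also have an ordinary probe set, among them RIP1, which encodes the Rieske iron-sulfur protein of the respiratory chain. The RIP1 control had 24.3 units on the array labelled as sir4 null and 200.1 units in wild type, while its ordinary probe set had 172.0 and 375.4 units. WBP1, a subunit of the enzyme that glycosylates proteins, likewise had 113.7 and 164.4 units at its control and 436.6 and 412.7 units at its ordinary probe set. For URA3 the control and ordinary probe sets were close in wild type (214.7 and 204.2 units) and on the array labelled as sir4 null (139.3 and 160.0 units). So the size of a gene's ratio depended on which of its probe sets was read for RIP1 and WBP1. The 9 bacterial and phage control probe sets for hybridisation were all dimmer on the array labelled as sir4 null, at a median of 0.510 of wild type (0.368 to 0.605). The double null had a median of 0.237 of the ubp10 null at the same probe sets.

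Signal was also lost at ordinary probe sets, to an extent that differed by the class in the probe set's name. Where these probe sets lie along their transcripts is not given, so a link to the controls was not tested. Affymetrix marks a probe set whose probes may match several transcripts with _s_at or _f_at. One that belongs to a group of sets has _g_at, and further marks such as _i_at and _r_at exist. A plain _at carries none of these marks. Among plain probe sets of genes with 1 probe set, 4061 had at least 13.3 units in wild type, and 39 of these (0.960%) lay below the floor on the array labelled as sir4 null. Among _s_at probe sets that name 1 gene, 82 of 176 (46.6%) did so, and among _g_at probe sets 20 of 46 (43.5%). All 82 belonged to genes with several probe sets, among whose _s_at probe sets they were 82 of 162 (50.6%). The share was far smaller for _f_at probe sets that name 1 gene, at 7 of 125 (5.6%). For plain probe sets of genes with several probe sets it was 18 of 278 (6.47%). In the double null the same _s_at probe sets were below the floor in 17 cases (9.66%), and in the ubp10 null in 3 (1.70%). The difference between classes was as wide among probe sets of like brightness: of those with at most 100 units in wild type, 71 of 141 _s_at (50.4%, median 34.8 units in wild type) and 39 of 2583 plain ones of genes with 1 probe set (1.51%, median 38.7 units) were below the floor on the array labelled as sir4 null. Among genes with several probe sets, the same counts were 71 of 130 _s_at (54.6%) and 15 of 186 plain ones (8.06%).

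**Figure D2:**
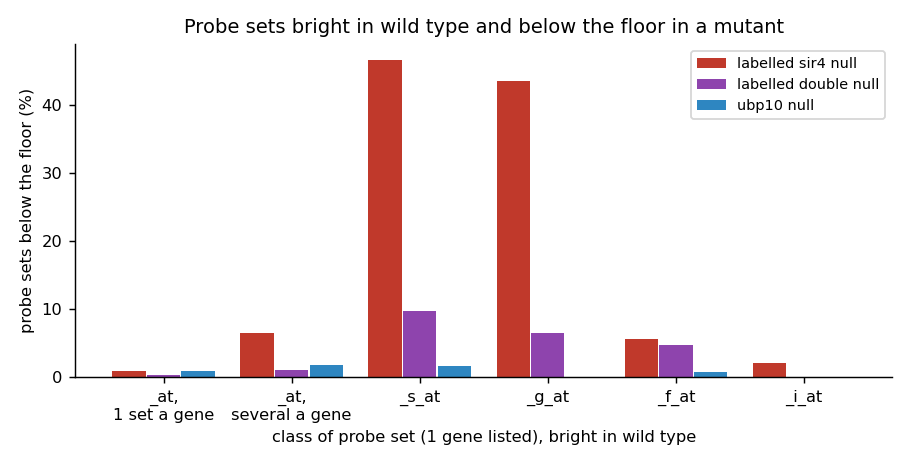
Percentage of probe sets with at least 13.3 units in wild type that lay below the floor on the arrays labelled as sir4 null, double null and ubp10 null, by the class in the probe set's name. The array labelled as sir4 null reached 46.6% for _s_at and 43.5% for _g_at probe sets. Plain probe sets reached 0.960% for genes with 1 probe set and 6.47% for genes with several.

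Some single genes with several probe sets show this directly. GCN1, a large activator of the amino acid starvation kinase, had a plain probe set at 119.2 units on the array labelled as sir4 null and 122.3 in wild type, but an _s_at probe set at 8.8 and 131.6 units. TRA1, a very large subunit of the SAGA and NuA4 histone acetyltransferases, had 132.7 and 128.6 units at a plain probe set and 2.7 and 39.3 units at an _s_at one. TOM1, a large ubiquitin ligase, had 245.3 and 122.7 units at the plain probe set and 1.8 and 47.5 at an _s_at one. For these 3 genes the plain probe set was about as bright as in wild type or brighter, while the other fell below or close to the floor. Several further _s_at probe sets of the 3 were below the floor on both arrays. Not every such gene was alike: APC1 had 34.2 units against 53.9 in wild type at its brightest plain probe set and 4.0 against 40.3 at an _s_at one.

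Probe sets of brighter genes parted too, but not along the classes: both probe sets of TEF4, ASC1 and EFB1 are plain ones. The elongation factor gene TEF4 had 307.0 units on the array labelled as sir4 null and 448.5 in wild type at one probe set and 0.4 and 456.2 units at the other. ASC1, a scaffold protein of the small ribosomal subunit, had 1735.9 and 3097.3 units at one and 97.3 and 2702.3 units at the other. EFB1, the exchange factor of elongation factor 1, had 1240.6 and 1845.8 units against 103.9 and 1496.4. HAC1, the transcription factor of the unfolded protein response whose mRNA is spliced outside the nucleus, had 263.0 units against 536.4 in wild type at its _i_at probe set, 2.0 and 335.7 units at an _s_at one and 1.5 and 234.9 units at a plain one. Of the 315 genes with more than 1 probe set, 199 had a call in at least 1, and in 172 of them some probe sets were called and others were not. In 14 of the 315 genes, probe sets were called in opposite directions. All probe sets were called lower in 26 genes and higher in 1, COB.

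Calls therefore differed by the number of probe sets behind a gene. Over all genes, 359 (6.35%) were called higher and 527 (9.32%) lower, a split that turned to 1120 higher and 253 lower on the values as deposited and to 416 and 359 after quantile normalization. The shares of 6.35% and 9.32% are the ones to set beside the gene list counts below. Of the 5341 genes with 1 probe set, 353 (6.61%) were higher and 444 (8.31%) lower. Of the 315 genes with several, 6 (1.90%) were higher and 83 (26.3%) lower. Over probe sets, 589 (6.35%) were higher and 1110 (11.97%) lower, but lower calls made up 7.54% of plain _at sets, 29.1% of _s_at sets and 46.4% of _f_at sets.

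Level mattered too. When genes were put in 5 equal bins by level, the brightest bin had geometric means of 208.1 units or more. There the median log2 ratio was -0.40, 20.7% were called lower and 0.731% higher. In the other 4 bins the medians lay between -0.02 and 0.24, and 5.22% to 10.2% were called lower. On the scale as deposited, the 98th percentile of the probe sets was 1029 units on the array labelled as sir4 null and 989.5 for the double null, against 1559 for the ubp10 null and 1480 in wild type. The length of the gene went with the ratio much less. From the shortest to the longest of 5 equal bins of genes the median log2 ratios were 0.04, 0.02, 0.04, 0.06 and -0.02.

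**Figure D3:**
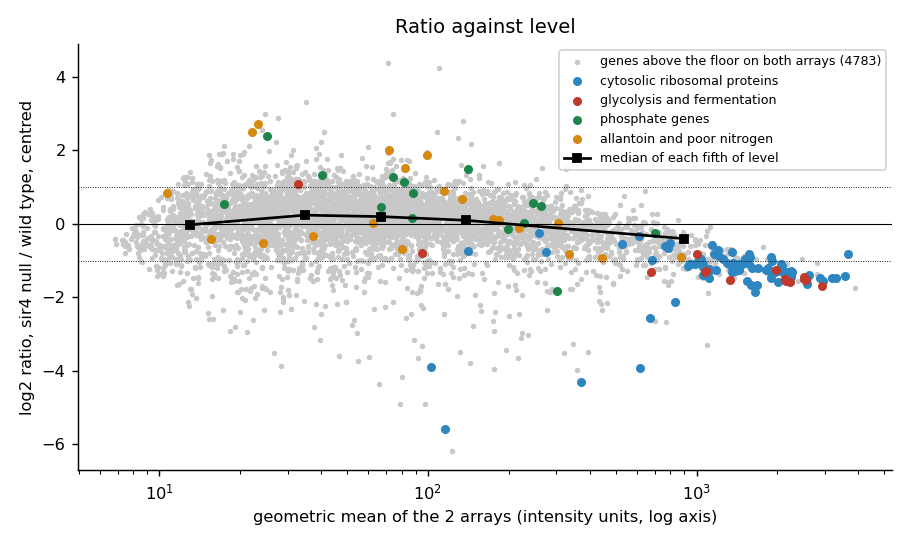
Centred log2 ratio, array labelled as sir4 null over wild type, of each gene against its geometric mean level on the 2 arrays, with 4 gene lists in colour, dotted lines at 2-fold and black squares at the median of each of 5 bins of level. The brightest bin has a median of -0.40 and holds most ribosomal protein and glycolysis genes, while the allantoin and phosphate genes called higher lie at middle and low levels.

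Because the arrays labelled double null and ubp10 null also differ in SIR4 and share no array with the pair described here, they give a separate set of values for the same deletion in cells without UBP10. Between them 950 genes (16.8%) were higher and 621 (10.98%) lower. Of the 359 genes higher on the array labelled as sir4 null than in wild type, 164 were higher there as well (45.7% of the 359 and 17.3% of the 950) and 21 were lower (5.85%). Of the 527 lower genes, 198 were lower there as well (37.6% of the 527 and 31.9% of the 621) and 26 were higher (4.93%). Across the 4642 genes above the floor on all 4 arrays, Pearson's r between the log2 ratios was 0.42 and Spearman's rho 0.45, and 0.35 and 0.38 without the brightest bin. Genes are not independent replicates, and within each pair the SIR4-deleted arrays were also the ones with the lower 98th percentile, whose part in these counts was not tested.

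**Figure D4:**
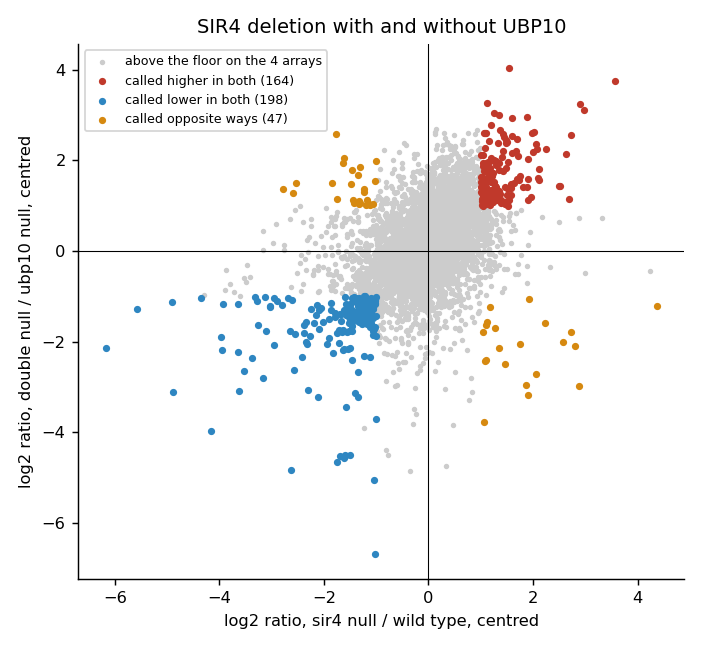
Centred log2 ratio of the array labelled as sir4 null over wild type, across, and of the double null over the ubp10 null, upwards, for each gene. Red and blue points are the 164 and 198 genes called higher and lower in both, orange points the 47 called in opposite directions, and r is 0.42 over the genes above the floor on the 4 arrays.

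Of 22 silencing factors measured, 3 were called higher and 1 lower, next to 6.35% and 9.32% of all genes, and the median log2 ratio was 0.24, next to -0.06 over all 5656 genes. DOT1, which methylates histone H3 and so limits where Sir proteins spread, had 73.2 units on the array labelled as sir4 null, 50.5 in the double null, 10.2 in the ubp10 null and 24.8 in wild type. It was thus higher in each strain labelled as lacking SIR4 than in its counterpart, with log2 ratios of 1.10 with UBP10 and 1.94 without it. RIF1, a telomere-length regulator that binds Rap1, had 53.7 units against 17.5 in wild type (log2 1.15), and YKU70, of the Ku heterodimer at telomere ends, had 22.3 units against a value below the floor (at least 2.42-fold higher). HST2, a cytoplasmic relative of Sir2, was lower at 18.3 units against 50.1. The other SIR genes were not called: SIR2 had 64.9 units against 38.1, SIR3 72.1 against 39.4 and SIR1 10.5 against 8.80.

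The silent cassettes are read by 7 probe sets, and 4 of them were called higher and none lower. Of the 7, 3 list HMRA1 alone and the rest list cassette genes together with MATALPHA1 or MATALPHA2. The listing does not separate the silent copies from the active mating-type locus of this a-mating strain. Which copy gave a signal was not tested. Over all probe sets 6.35% were higher and 11.97% lower. A probe set shared by HMRA2, MATALPHA2 and HMLALPHA2 had 143.0 units on the array labelled as sir4 null, 143.8 in the double null, 65.4 in the ubp10 null and 49.2 in wild type. A probe set of MATALPHA1 and HMLALPHA1, which encode the activator of alpha-specific genes, had 57.2, 93.1, 14.8 and 17.3 units in the same order. Both strains labelled as lacking SIR4 were higher at these 2 probe sets than both that keep it. Not all of the 7 had this order: a second HMRA2, MATALPHA2 and HMLALPHA2 probe set had 30.2, 71.3, 82.8 and 24.6 units and 1 of HMRA1 252.4, 216.6, 279.3 and 88.1 units, both highest in the ubp10 null. Both further HMRA1 probe sets were above the floor only on the arrays labelled as sir4 null and double null, with at most 20.2 units. A second MATALPHA1 and HMLALPHA1 probe set was below the floor on all 4 arrays.

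The mating genes did not follow the pattern of the double null. MFA2, which encodes the a-factor pheromone, had 761.0 units on the array labelled as sir4 null, 14.8 in the double null, 1195.7 in the ubp10 null and 1117.4 in wild type. STE2, the receptor for alpha-factor, had 174.4 units, a value below the floor, 117.1 units and 231.2 units in that order. The a-specific transcripts thus stayed far above the floor on the array labelled as sir4 null and were near or below it in the double null. The strain behind the label of this array was not tested. On it these transcripts stayed high and the SIR4 value was not lower than in wild type, while 4 of the 7 cassette probe sets were called higher. Of the 7 a-specific genes 3 were called lower, next to 9.32% of all genes: MFA1 (log2 -1.05), MFA2 (-1.02) and BAR1 (-1.01), all just past the 2-fold limit. None of the 7 was lower on the values as deposited or after quantile normalization, and 3 were after cyclic loess. The same 7 had a median log2 ratio of -0.96 here and of -3.72 for the double null against the ubp10 null, where 6 were lower. None of the 4 alpha-specific genes was called, and 3 of them, STE3 and the genes of the alpha-factor precursors, lay at or near the floor on both arrays.

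Haploid-specific genes, which both mating types of haploid express, were split. Of 13 measured, 2 were called higher and 3 lower, next to 6.35% and 9.32% of all genes, and the median was 0.09. For the double null against the ubp10 null none was higher and 10 were lower (median -2.14), next to 16.8% and 10.98% of all genes. GPA1, the alpha subunit of the pheromone G protein, had 221.6 units on the array labelled as sir4 null, 9.3 in the double null, 22.4 in the ubp10 null and 74.3 in wild type. HO, the mating-type switching endonuclease gene, had 232.3 units, a value below the floor, 27.5 units and 77.9 units. Both were highest of the 4 arrays on the one labelled as sir4 null (log2 1.11 each against wild type) and lowest in the double null. FUS3, the pheromone MAP kinase, was lower (13.2 units against 27.3 over its 3 probe sets, log2 -1.51, but 52.1 against 54.6 units at 1 of the 3), as were STE12, its transcription factor (-1.15), and SST2, which desensitises the pathway (-1.07). With plain probe sets alone 2 of the 13 were lower. After quantile normalization 2 of the 13 were higher, and after cyclic loess none was. Of 16 pheromone-induced genes 1, PRM8, was called, and it was lower.

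Genes near chromosome ends were called at about the rate of other genes. Of the 208 genes among the 10 outermost of each of the 32 chromosome arms, 9 (4.33%) were higher and 19 (9.13%) lower, next to 282 (5.91%) and 451 (9.45%) of the 4773 genes further in than the outermost 20. Among the 68 of the outermost 5, 3 were higher and 7 lower. Of 21 genes near the silent cassettes none was higher and 2 were lower, EMA35 (log2 -1.42) and YCR102C (-1.20). The lower ones near ends included YAR068W, an open reading frame of chromosome I (10.6 units against 47.3), IRC7, a beta-lyase of sulfur metabolism (51.5 against 172.1), and SEO1, a putative permease (19.7 against 60.8). YER186C, of unknown function, was among the higher ones in both pairs of arrays. It had 127.9 units on the array labelled as sir4 null, 91.9 in the double null, 29.8 in the ubp10 null and 37.9 in wild type.

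Repeated sequences near telomeres and elsewhere were read by shared probe sets. Of 24 probe sets for the Y′ elements that lie next to telomeres, 3 were higher and 5 lower, with 8 above the floor on both arrays. One had 29.5 units on the array labelled as sir4 null, 7.4 in the double null, 8.6 in the ubp10 null and 7.5 in wild type, and another had 3.0, 208.2, 109.7 and 228.3 units. The called probe sets of the family thus had no common direction, and the 5 lower ones were all _s_at probe sets. The brightest probe sets of the family were not called. Their log2 ratios ran from -0.76 (775.4 units against 952.7 in wild type) to 0.06 (867.7 against 602.5). Probe sets for Ty retrotransposons were lower more often than higher: of 139, 73 (52.5%) were lower and 8 higher, next to 11.97% and 6.35% of all probe sets. The direction differed by element. All 8 higher ones were _f_at probe sets that list YHL009W-B, for which no probe set was called lower. Most probe sets that name YGR109W-B alone were not called. The median of the 139 was 124.3 units on the array labelled as sir4 null and 468.8 units in wild type. Of the 139, 93 were lower and 3 higher when double null was set against ubp10 null. Of the 139, 100 are _f_at and 34 _s_at probe sets, the classes with the most lower calls.

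Genes for the use of poor nitrogen sources held higher calls and no lower ones. Of 21 measured genes 6 were higher and none lower (6.35% and 9.32% over all genes), and under the 6 other scalings, floors and probe set choices tried the count of higher genes was between 6 and 9. DAL1, allantoinase, which opens the ring of allantoin, had 70.0 units on the array labelled as sir4 null, 50.2 in the double null, a value below the floor in the ubp10 null and 7.7 units in wild type (log2 2.72). DAL7, a malate synthase of the same pathway, had 168.8, 52.7, a value below the floor and 30.4 units. DAL4, the allantoin permease, had 61.7, 25.2, 7.2 and 7.9 units. In all 3 both strains labelled as lacking SIR4 were brighter than both that keep it.

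The remaining members of the pathway filled out this picture. DAL2, allantoicase, had 59.1 units against a value below the floor in wild type (at least 6.41-fold higher), DCG1, in the same gene cluster, had 162.4 units against 41.3, and PUT1, proline oxidase, had 224.5 against 43.7. Between double null and ubp10 null 7 members were higher and 1 lower, among them DAL1 (log2 2.55), DAL7 (2.62), DAL4 (1.44), DAL2 (1.15) and DCG1 (1.24), but PUT1 had a ratio of -0.34. DAL80, the repressor of these genes, and DAL3, the ureidoglycolate enzyme, were not called, with 200.2 units against 89.9 and 360.7 against 257.4. GAP1, the general amino acid permease, which poor nitrogen also induces, was not called and had a ratio of -0.93 (1057.5 units against 1459.3). The median of the whole list was 0.12, so the change lay in the named members.

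Genes for phosphate uptake and storage came next, with 7 of 20 higher, against 6.35% of all genes, and a median of 0.52. The 2 lower ones were near the share of 9.32% over all genes. PHO84, the high-affinity phosphate transporter, had 277.3 units on the array labelled as sir4 null, 81.0 in the double null, 11.6 in the ubp10 null and 71.5 in wild type. PHO5, the secreted acid phosphatase, had 75.2, 31.9, 9.9 and 21.5 units, and VTC3, a subunit of the polyphosphate polymerase, 141.9, 65.2, 14.0 and 47.0 units. These 3 were called higher in both pairs, but the double null was nearer to wild type than to the array labelled as sir4 null. SPL2, which limits low-affinity phosphate uptake, had 67.6 units against 9.4 in wild type (log2 2.38), and PHO81, the inhibitor of the Pho80-Pho85 kinase, 136.6 against 40.3 (1.29). The probe set shared by PHO11 and PHO12, further acid phosphatases, had 238.4 units against 60.6 (1.51).

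The transcription factor of the pathway moved the other way. PHO4 was below the floor on the array labelled as sir4 null and had 9.7 units in the double null, 63.0 in the ubp10 null and 23.9 in wild type, so it was at least 4.95-fold lower than wild type. PHO3, an acid phosphatase that is not under phosphate control and lies beside PHO5, had 188.9 units against 486.9. PHM8, a phosphatase of nucleotides induced by low phosphate, had 38.4, 18.5 and 94.1 units in the sir4, double and ubp10 nulls and a value below the floor in wild type. It was higher than wild type by at least 4.17-fold and, unlike PHO84, PHO5 and VTC3, was lower in double null than ubp10 null cells.

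Iron and copper genes diverged within 1 list of 31. There 4 genes were called higher and 8 lower, next to 6.35% and 9.32% of all genes (median -0.41). The higher ones served copper uptake and haem iron recycling. CTR1, the plasma membrane copper transporter, had 161.4 units on the array labelled as sir4 null, 102.5 in the double null, 42.8 in the ubp10 null and 34.3 in wild type. FRE1, the reductase that prepares copper and iron for uptake, had 107.2, 85.2, 8.6 and 21.1 units, and ATX1, the cytosolic copper chaperone, 647.7, 568.1, 83.9 and 165.9 units. CTR3, a second copper transporter that was not in the list, had 39.1 and 40.7 units on the arrays labelled as sir4 null and double null and was below the floor on the other 2. These 4 copper genes were brighter in both strains labelled as lacking SIR4 than in both that keep it.

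The 8 lower genes of the list serve iron uptake and use. MRS4, which carries iron into mitochondria, had 7.8 units on the array labelled as sir4 null, 73.9 in the double null, 38.3 in the ubp10 null and 42.8 in wild type (log2 -2.92). ISU1, the scaffold for iron-sulfur clusters, had 76.8, 291.9, 117.8 and 215.9 units. AFT1 and AFT2, the activators of the iron regulon, had log2 ratios of -1.29 and -1.48, and their target FET3, a multicopper oxidase for iron uptake, -1.10 (413.0 units against 639.3). The lowest of the 4 values fell on the array labelled as sir4 null for MRS4, ISU1 and FET3, and none of the 8 lower genes was called lower between the double and ubp10 nulls. HMX1, haem oxygenase, had 341.4, 337.5, 335.3 and 49.3 units and was thus at 1 level in the 3 mutants.

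The list for breakdown and uptake of aromatic and branched amino acids had 3 of 14 members higher, ARO9, ARO10 and ARO80, and 3 lower, which are permeases, with a median of -0.46. ARO9, an aromatic aminotransferase, had 559.9, 702.8 and 745.6 units in the sir4, double and ubp10 nulls and 21.5 units in wild type, and ARO80, the activator of ARO9 and ARO10, had 22.2, 24.0, 23.3 and 6.7 units. Both were above wild type in all 3 mutants. TAT1, a transporter of tyrosine and valine, had 20.2 units on the array labelled as sir4 null, 38.2 in the double null and 179.2 in wild type (log2 -3.62), with its highest value in the ubp10 null. BAP2 and BAP3, for leucine, isoleucine and valine, had log2 ratios of -3.10 and -2.90, and both were also lower between double null and ubp10 null (-1.76 and -1.10).

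A set of 23 amino acid and peptide permeases was chosen after the values were seen. Of these 9 were lower and none higher (9.32% and 6.35% over all genes), with a median of -0.62. Besides those above they were the S-adenosylmethionine permease SAM3 (log2 -2.61), the histidine permease HIP1 (-1.73), AGP3 (at least 2.86-fold lower), AGP1 (-1.45), the peptide transporter PTR2 (-1.27) and GNP1 (-1.22). AGP1 had 466.2 units on the array labelled as sir4 null, 751.3 in the double null, 860.8 in the ubp10 null and 924.1 in wild type. TAT1, BAP2, BAP3 and SAM3 were lower in both pairs. The 5 probe sets of SAM3 differed, however, from 555.9 units against 398.2 in wild type (0.02) at the brightest to 6.6 against 391.7 (-6.34).

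In a list of vitamin B6 and thiamine genes, also chosen after the values were seen, 3 of 11 were lower and none higher, with a median of -0.20. SNO1, which encodes the glutaminase partner of pyridoxine synthase, had 17.0 units on the array labelled as sir4 null, 19.0 in the double null, 127.6 in the ubp10 null and 365.1 in wild type. Its divergently transcribed neighbour SNZ1, the synthase subunit, had 72.1, 78.6, 137.2 and 648.9 units. After centring, SNO1 was 29.7-fold and SNZ1 12.4-fold lower than wild type, and each was lower in double null than ubp10 null cells. VHR2, a relative of the vitamin H regulator VHR1, was lower too, with 30.4, 61.1, 222.4 and 275.4 units. In contrast, the probe set shared by SNO2 and SNO3 had 72.2 units on the array labelled as sir4 null and 15.3 in wild type (log2 1.77).

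Several genes encoded in mitochondrial DNA were far brighter on the array labelled as sir4 null than on the other 3. COX3 and COX2, subunits of cytochrome oxidase, had 138.0 and 83.5 units there and lay below the floor in wild type, at least 15.0-fold and 9.06-fold higher. COX3 had 22.0 units in the double null and 9.8 in the ubp10 null, and COX2 11.1 units and a value below the floor. Probe sets shared by COX1 and its intron genes were higher as well, one with 192.9 units against 24.9 in wild type (log2 2.49), but the 3 probe sets that name COX1 alone averaged 117 and 92.1 units (-0.12). Those 3 went opposite ways, from 115.5 units against 41.0 in wild type (1.03) to 103.2 against 222.7 (-1.58). Probe sets shared by COB and its intron genes were higher too, one with 93.6 units against 9.4 (2.85). Yet ATP6, of the mitochondrial ATP synthase and encoded in the same DNA, was lower, with 123.2 units on the array labelled as sir4 null, 181.8 in the double null, 286.4 in the ubp10 null and 269.4 in wild type. Of 17 mitochondrially encoded genes 5 were higher and 1 lower, next to 6.35% and 9.32% of all genes.

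The nuclear genes of respiration did not follow. Of 41 for the respiratory chain and ATP synthase, 2 were higher and 3 lower, near the shares of 6.35% and 9.32% over all genes. COX26, a small cytochrome oxidase subunit, had 183.1 units on the array labelled as sir4 null, 69.0 in the double null, 32.4 in the ubp10 null and a value below the floor in wild type. AAC1, an ADP/ATP carrier, had 119.3, 75.0 and 49.8 units and a value below the floor in that order. In both, the levels descended from the array labelled as sir4 null to wild type. RIP1, COR1 and ATP16 were lower (log2 -1.59, -1.25 and -1.34), each with its lowest of the 4 values on the array labelled as sir4 null. Mitochondrial ribosomal protein genes had a median of 0.22, with 4 of 66 higher and 1 lower, against 18 higher and 2 lower in the double null over the ubp10 null.

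CYB2, the lactate dehydrogenase of the mitochondrial intermembrane space, ranked first among genes higher in both pairs of arrays by the smaller of its 2 ratios. It had 108.8 units on the array labelled as sir4 null, 132.9 in the double null, 7.7 in the ubp10 null and a value below the floor in wild type. MLS1, malate synthase of the glyoxylate cycle, had 27.0 units on the array labelled as sir4 null and lay below the floor on the other 3, and FOX2, of peroxisomal fatty acid oxidation, had 71.0 units against 23.8. PEX5, the receptor that imports peroxisomal enzymes, had 59.7, 74.0, 9.5 and 10.9 units. Other genes higher in both pairs included SNT309, of the splicing complex NTC (57.0 and 37.9 units against values below the floor), MTG1, a mitochondrial GTPase (91.9, 59.3, 8.9 and 15.9 units), and ATG10, an enzyme of autophagy (73.9, 60.2, 10.3 and 13.4 units).

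Phospholipid genes went both ways, with a median of -0.03. INO1, which makes inositol phosphate, had 130.7 units on the array labelled as sir4 null, 32.8 in the double null, 15.5 in the ubp10 null and 9.5 in wild type. Its activator INO2 was below the floor on the array labelled as sir4 null and had 41.4, 28.2 and 18.8 units on the others. INO1 was thus highest and INO2 lowest on the same array. Of 25 genes 5 were higher, INO1, the phosphatidylserine decarboxylase PSD1 (log2 1.51), the ethanolamine and choline kinases EKI1 (1.41) and CKI1 (1.01) and the CDP-diacylglycerol synthase CDS1 (1.12), and 4 were lower. The subunits of fatty acid synthase, FAS1 and FAS2, were lower at -1.94 and -1.71, and at -2.06 and -2.04 in the double null over the ubp10 null, each as a mean of 8 probe sets. Their brightest probe sets did not pass 2-fold, with 644.0 units against 657.1 for FAS1 (-0.50) and 791.0 against 480.2 for FAS2 (0.25), and with plain probe sets alone 2 of the 25 genes were lower.

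The large groups of very bright genes were lower as blocks, to an extent that depended on the scaling. Of 80 cytosolic ribosomal protein genes 59 were lower and none higher (median -1.21), and 18 were lower on the values as deposited. After quantile normalization 6 were lower, with a median of -0.06, and after cyclic loess 6, with a median of -0.12. As an example, RPL3 had 838.7 units on the array labelled as sir4 null, 864.4 in the double null, 1634.1 in the ubp10 null and 1481.5 in wild type. Of 16 genes of glycolysis and fermentation 13 were lower and 1 higher (median -1.47), and after either of those normalizations none was called (medians -0.29 and -0.28). PGK1, phosphoglycerate kinase, had 1508.9, 1492.6, 2836.9 and 2591.5 units. The 2 arrays labelled as lacking SIR4 had nearly 1 level for these genes and the other 2 a higher one, as for the 98th percentile of all probe sets.

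A few bright genes went beyond this shift, some of them only at part of their probe sets. In the ribosomal list RPL7B (log2 -5.57), RPS0A (-4.29), RPS0B (-3.93) and RPL7A (-3.89) had the lowest ratios, each over several probe sets. A probe set shared by RPL7A and RPL7B, however, had 1105.1 units on the array labelled as sir4 null and 1999.0 in wild type. Its log2 ratio of -1.32 was near the list's median of -1.21. The probe sets that name RPL7B alone were alike, at -5.57 and -5.56, while those of the other 3 genes differed in size. RPS0B, for one, had 1825.1 units on the array labelled as sir4 null and 3591.9 in wild type at its plain probe set, and 18.7 and 1156.4 units at its _f_at probe set. RPS14B had 1 probe set, with 325.2 units on the array labelled as sir4 null, 557.4 in the double null, 1552.6 in the ubp10 null and 1377.5 in wild type (log2 -2.55). TDH1, one of the glyceraldehyde-3-phosphate dehydrogenases, was higher at 56.4 units against 19.2, and lower between double null and ubp10 null.

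Among 48 translation factors and tRNA synthetases, 8 were lower and none higher, next to 9.32% and 6.35% of all genes. Of the 48, 37 lay in the brightest of the 5 bins of level, where 20.7% were lower and 0.731% higher. DED1, an RNA helicase that unwinds mRNA leaders, had 17.1 units on the array labelled as sir4 null, 207.2 in the double null, 328.5 in the ubp10 null and 254.2 in wild type. SUI3, the beta subunit of initiation factor eIF2, had 90.1, 271.6, 143.0 and 249.3 units. DHH1, a helicase of mRNA decapping, fell below the floor on the array labelled as sir4 null and had 43.5, 173.3 and 49.9 units on the others. In these 3 genes, each with 1 probe set, the value on the array labelled as sir4 null was the lowest of the 4.

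Cell wall genes were lower, with 17 of 33 lower, 1 higher and a median of -1.03, and 4 and 6 were lower after quantile and cyclic loess normalization. HSP150, a secreted mannoprotein, had 330.6 units on the array labelled as sir4 null, 916.3 in the double null, 2420.3 in the ubp10 null and 1487.1 in wild type (log2 -2.64). CCW12, a covalently linked wall protein, had 2507.9, 2710.9, 7413.8 and 6085.1 units. ECM33, a wall protein, had a log2 ratio of -3.49 over 2 probe sets that differed, with 16.3 units against 751.6 (-5.99) at one and 1177.6 against 1692.4 (-0.99, not called) at the other. SCW10, a glucanase-like wall protein, was the higher one (276 units against 73.6), through 1 of its 2 probe sets (230.5 units against 20.1, and 330.8 against 269.8 at the other). The glucan synthase FKS1 had a ratio of -2.18 over its 8 probe sets but of 0.60 at its plain probe sets alone. LEU2, an auxotrophic marker of W303, also depended on the probe sets read, at -2.77 over 3 probe sets and 0.28 at the plain one.

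**Figure D5:**
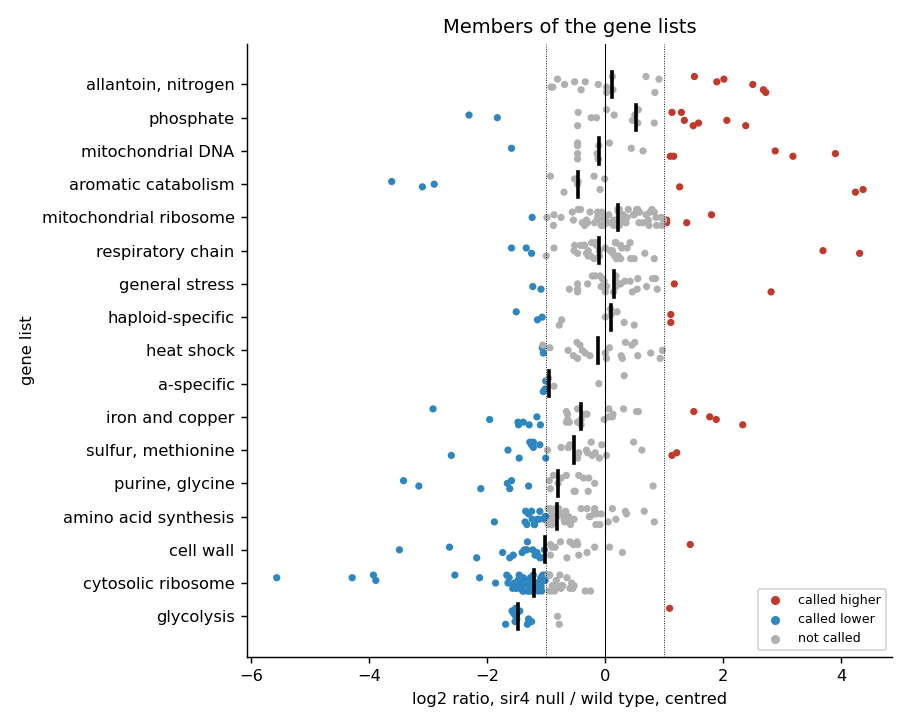
Centred log2 ratio, array labelled as sir4 null over wild type, of each measured member of 17 gene lists, with the list's median as a black bar, dotted lines at 2-fold and colour by call. Glycolysis and the cytosolic ribosome have medians of -1.47 and -1.21, while the phosphate list has the highest median, 0.52.

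Biosynthetic lists held lower calls above all. In the amino acid biosynthesis list of 57, lower calls numbered 15 and higher calls 0 (median -0.82), but 1 was lower and 2 higher on the values as deposited. ARG1, argininosuccinate synthetase, had 1112.7 units on the array labelled as sir4 null, 844.7 in the double null, 1714.7 in the ubp10 null and 2029.0 in wild type. Of 28 genes for sulfur and methionine 9 were lower and 2 higher, the higher ones being the regulators MET4 (log2 1.21) and MET32 (1.13). After quantile normalization 2 of the 28 were lower. The purine and glycine list kept more of its calls, with 7 of 21 lower and 5 after either normalization. GCV1, of the glycine decarboxylase complex, had 15.6 units on the array labelled as sir4 null, 89.6 in the double null, 68.2 in the ubp10 null and 100.9 in wild type, and ADE17, of purine synthesis, 28.1, 408.7, 402.8 and 87.6 units.

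Other lists held few calls. Of 24 heat shock genes 2, SSA2 and HSC82, were lower (SSA2 had a ratio above 0 after quantile and cyclic loess normalization), and in the general stress list of 31, 2 went up and 2 down, against 17 lower and none higher for the double null over the ubp10 null. Of 33 proteasome genes 2 were lower, and 0 with plain probe sets alone. Of 20 genes for folding in the endoplasmic reticulum 1, HAC1, was lower. None of 5 histone genes with a probe set of their own was called. Among 27 antioxidant genes, superoxide dismutase SOD1 (log2 -1.32) and its copper chaperone CCS1 (-1.29) were lower, and the peroxidases GPX2 (1.66) and TSA2 (1.54) were higher from low levels of 7.4 and 8.4 units in wild type. In ergosterol synthesis, ERG11 was lower (-1.45) and ERG29 higher (1.26).

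Genes close to the 2-fold limit show how fine the calls are. PAF1 and ORC3 (log2 1.01) were just inside on the higher side, and TKL1 and LEU4 (-1.01) on the lower side. GWT1 and NRG1 lay just outside on the higher side, and HTB1 and COX5A on the lower side. These genes were not tested, since each strain has 1 array.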

How the data were processed

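The deposited values are linear intensities, 1 per probe set and array, which the authors computed with MAS 4.0 as average differences on the S98 yeast array of Affymetrix, per the labels. The sources used here do not give the scaling. Trimmed means were near 100 units on each array. Gene names came from the platform annotation and the RefSeq gene table of assembly R64. Of the 9275 probe sets that are not controls, 6504 had 1 gene, 328 several and 2443 were not listed.

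Negative values gave a noise SD of 2.22 units, and values were raised to 3 of these. A gene was the mean log2 of the probe sets that name it alone. The gene lists and the members were chosen with earlier results of these data known, and the permease and vitamin lists after the values were seen. Named genes followed a rule: silencing and mating genes, the largest and most concordant changes, up to 5 called members per list, chromosome-end genes and those nearest 2-fold; others were chosen after their values were seen. Gene length replaced protein length, since no protein table was used, and it is mostly coding length, as 96.3% of lengths are multiples of 3. Promoter motifs were not analysed here.

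Alternatives were quantile and cyclic loess normalization (limma 3.58.1 in R 4.3.3), no centring, other floors, folds and brightness minimums, and plain probe sets alone. Those that keep genes with 1 probe set, or genes outside the brightest of 5 bins, were chosen after seeing the data. The calling rule was also run on simulated arrays with known changes, an even shift and noise. Those arrays had no drop towards the 5′ end, by probe set class or by level, so the run says nothing on these. Python 3.11.15, numpy 2.4.6 and pandas 2.3.3 were used. The precision is limited by 1 array per strain.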

Additional observations from a re-analysis of the deposited data

Results flagged for a closer look

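Of the named genes, 11 were called in one direction between the array labelled as sir4 null and wild type and in the opposite direction between the arrays labelled double null and ubp10 null, a difference that was not tested, since each strain has 1 array. Higher in the first pair and lower in the second were ARO10 (log2 4.37 and -1.22), YGP1 (2.81 and -2.10), the tRNA gene YNCL0007W (2.57 and -2.02), PHM8 (2.06 and -2.71), TSL1 (1.17 and -1.24), TDH1 (1.09 and -2.42), GPA1 (1.11 and -1.63) and HO (1.11 and -2.41). For ARO10 the 3 mutants were all far above wild type, with 380.9 units on the array labelled as sir4 null, 577.8 in the double null, 1048.2 in the ubp10 null and 13.3 in wild type. YGP1, a secreted glycoprotein of nutrient limitation, had 420.6, 143.0, 475.4 and 43.3 units, and TSL1, a trehalose synthase subunit, 69.4, 115.8, 212.5 and 22.3 units. Lower in the first pair and higher in the second were CLB2, a mitotic cyclin (-1.34 and 1.68), EMA35, near a silent cassette (-1.42 and 1.05), and ARE1, a sterol esterifying enzyme (-1.23 and 1.31). CLB2 had 11.6 units on the array labelled as sir4 null, 61.2 in the double null, 14.8 in the ubp10 null and 21.2 in wild type.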

How the results depend on the processing

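On the values as deposited, 1554 probe sets and 1120 genes were higher, 626 and 253 lower, and 703 genes were called alike in both pairs of arrays. At 1.5-fold 1399 probe sets were higher, 981 genes were higher and 967 lower, and 1012 were called alike; at 3-fold 144 probe sets were higher and 536 lower, 79 genes higher and 202 lower, and 66 alike. With plain probe sets alone 569 probe sets were lower, and outside the brightest of 5 bins 329 genes were. Among genes no longer than the median, 184 were higher and 281 lower, with fewer genes by construction. Of the 215 called genes that are named, the same call was made for 159 as deposited, 154 after quantile normalization and 148 after cyclic loess, and 0 had the opposite call. Log2 ratios changed sign for FKS1 (0.60), LEU2 (0.28) and TOM1 (0.53) with plain probe sets, and for HOR7 (0.21 and 0.19), LYS20 (0.06 and 0.02) and SSA2 (0.44 and 0.35) with quantile and cyclic loess normalization. The brightest FKS1 probe set, however, had a ratio of -0.58. The cause of the sign changes was not tested. No paired analysis was run, and with 1 array per strain no replicate could be left out. Signals near the floor limit SIR4, SIR1 and the alpha-specific genes.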

Other observations

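Small nucleolar RNA genes, which guide the modification of ribosomal RNA, were higher on the array labelled as sir4 null in 12 of 57 cases and lower in 1 (6.35% and 9.32% over all genes), against 4 higher and 11 lower in the double null over the ubp10 null. Of 91 tRNA genes 6 were higher and 10 lower, near those shares, against none and 38. Among probe sets for which no gene was listed, 163 of 2443 (6.67%) were higher and 256 (10.5%) lower. One of the higher ones had 420.4 units on the array labelled as sir4 null, 113.3 in the double null, 56.8 in the ubp10 null and 33.9 in wild type (log2 3.17). One of the lower ones had 33.4, 167.9, 664.0 and 1007.5 units (-5.38).

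Further shared probe sets add families of near-identical genes. The sorbitol dehydrogenase genes SOR1 and SOR2 had 117.7 units on the array labelled as sir4 null, 18.2 in the double null, 23.8 in the ubp10 null and 21.0 in wild type (log2 2.02). The S-adenosylmethionine synthetase genes SAM1 and SAM2 had 1359.7, 2486.0, 4833.4 and 4123.9 units (-2.07), and the metallothionein gene CUP1, which binds copper, had 1554.1, 1468.4, 3946.0 and 2707.7 units (-1.27).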
